A study of Mus musculus with 6 samples.

Results

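The 10 genes described here carry glucose into T cells and through the opening steps of glycolysis. They were taken by symbol from 28773 gene identifiers and comprise the glucose transporters Slc2a1 and Slc2a3, the hexokinases Hk1, Hk2 and Hk3, the phosphofructokinase-1 subunits Pfkl, Pfkm and Pfkp, and the bifunctional enzymes Pfkfb3 and Pfkfb4. RNA of CD8+ T cells isolated from mouse spleen was measured at day 35 in 2 groups of 3 samples. All 6 samples came from mice given microwave ablation (MWA) of a tumor, after which the MWA+PBS group received the vehicle PBS (replicates 1 to 3) and the MWA+2DG group received 2-deoxy-D-glucose (2DG, replicates 4 to 6). 2DG is a glucose analog that enters through glucose transporters and, once phosphorylated by hexokinase, blocks the first steps of glycolysis. According to the methods of the study all mice were female and the 2DG injections had ended before day 35, while the labels give no strain, age, tumor line or mouse of origin for these samples. Mice without ablation and mice given 2DG alone were not analysed here, so the comparison is of 2DG added to ablation.

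Glucose enters T cells down its gradient through facilitative transporters, of which GLUT1 (Slc2a1) and GLUT3 (Slc2a3) are the main forms in lymphocytes. Hexokinase then traps it as a phosphate ester, and phosphofructokinase-1 commits the sugar to glycolysis. The PFKFB enzymes set the level of a fructose bisphosphate that activates phosphofructokinase-1. Resting and memory T cells use this route sparingly, and activated effector T cells raise it.

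The values were FPKM (fragments per kilobase of transcript scaled to the mapped fragments of the sample), which are per length and can be set side by side between genes. The files held no counts, so the sequencing depth was unknown. FPKM values summed to between 291803 and 313257 per sample. In MWA+PBS 12480 to 12515 genes reached 1 FPKM and mitochondrial genes held 21.4% to 22.8% of the summed FPKM, and in MWA+2DG 12198 to 12282 genes did so and mitochondrial genes held 19.4% to 20.7%. Neither value overlapped between the groups, and their part in the results was not tested. The labels do not say that the samples came from separate mice, and p-values then measure the spread between these samples only. Markers of T cells and of other cell types were both present. The T cell gene Cd8a ran from 225.8 to 239.3 FPKM in MWA+PBS against 359.0 to 377.1 in MWA+2DG, and markers of neutrophils, macrophages, monocytes, B cells, plasma cells, red cell precursors, platelets, NK cells and dendritic cells were measured as well, and none of the listed markers was at 0 in all 6 samples. MWA+PBS replicates 1 and 2 stood apart in Fbp1, a gene of glucose synthesis known from kidney and liver, which was 1.91 and 1.76 FPKM there and at most 0.34 FPKM in the other samples.

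All 10 genes had a mean of at least 1 FPKM and were tested among 12444 genes. In MWA+2DG, 5 rose compared to MWA+PBS (Slc2a1, Slc2a3, Pfkp, Pfkfb3 and Pfkfb4), 2 fell (Hk2 and Hk3), and 3 did not pass the test (Hk1, Pfkl and Pfkm). The test was limma on log2(FPKM + 1) with a Benjamini-Hochberg adjusted p under 0.05 over all genes, and it called 39.4% of the genes, 22.3% higher and 17.1% lower. With 1 sample left out the fit called 3 to 5 of the 10, and 29.8% to 41.7% of all genes. The median log2 difference of the 10 genes with all samples was 0.15, against 0.05 over all genes tested. The call rule of the study, an unadjusted p under 0.05 with a log2 change beyond 0.25, took 5 of the 10, 4 higher and 1 lower, leaving out Hk3 and Pfkfb3, and it took 38.2% of all genes, 21.6% higher and 16.6% lower. The 2 groups did not overlap in 8 of the 10 genes, 5 higher and 3 lower, and in 52.1% of all genes, 30.2% higher and 21.9% lower. Without MWA+PBS replicates 1 and 2, 4 of the 10 (Slc2a1, Slc2a3, Pfkp and Hk2) and 28.2% of all genes were called, with the single remaining MWA+PBS sample assumed to vary like the other group.

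**Figure D1:**
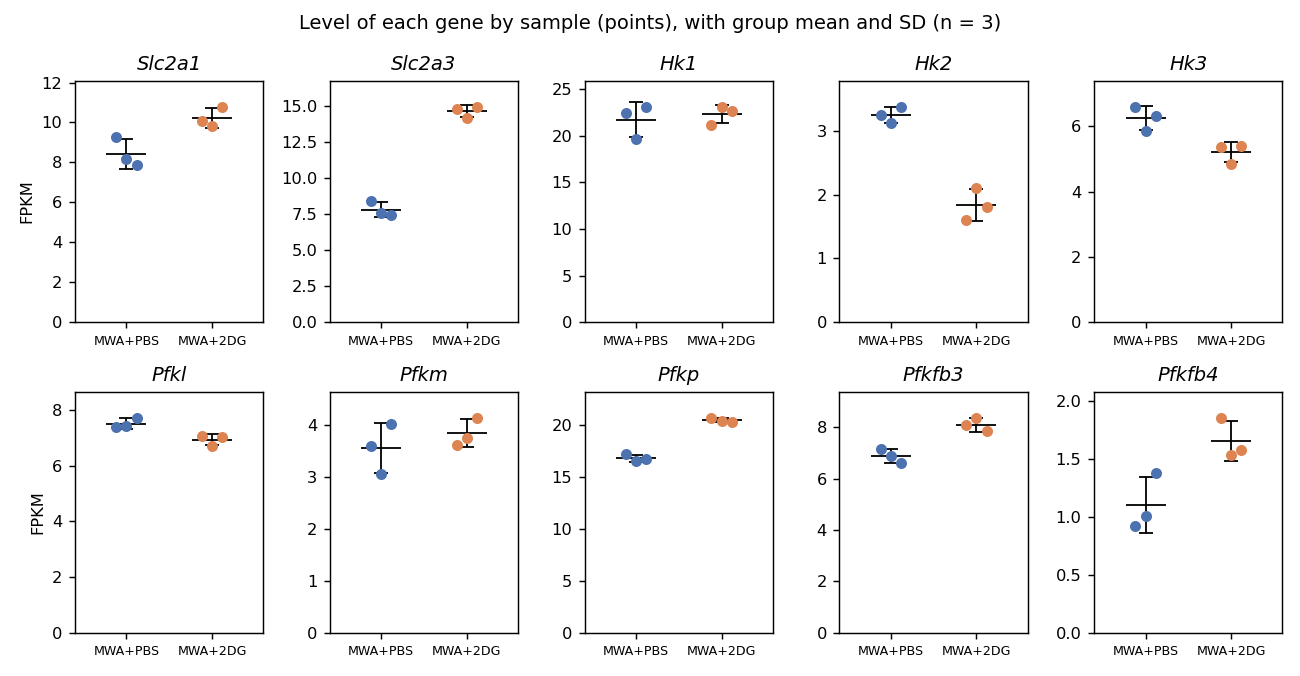
Level of each of the 10 genes in FPKM (vertical axis, from 0, with its own scale for each gene) in MWA+PBS and MWA+2DG. Points are samples, the long bar is the group mean and the whiskers are 1 SD (n = 3). The Slc2a3 samples sit at 7.45 to 8.37 and at 14.15 to 14.92 FPKM, the Hk2 samples at 3.13 to 3.38 and at 1.61 to 2.11.

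The scale on which the samples were compared decided several directions. The 17 T lineage genes listed as a reference held 14 genes higher in MWA+2DG, 1 lower and 2 not passing, with sums of 1517 to 1586 FPKM without and 2081 to 2214 FPKM with 2DG, and when their mean log2 value was set equal in all samples every difference moved down by 0.34. On that scale 62.7% of all genes were called, 5.48% higher and 57.2% lower, so that 8.74% of the calls were higher in place of 56.5%. Of the 10 genes, Slc2a3 was then higher, and Hk1, Hk2, Hk3 and Pfkl were lower. Slc2a1, Pfkp and Pfkfb3 turned to small negative values that did not pass the test. The values below are on the FPKM scale as deposited unless the T lineage scale is named. In such bulk samples, fewer cells of a type and less RNA per cell cannot be told apart.

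**Figure D2:**
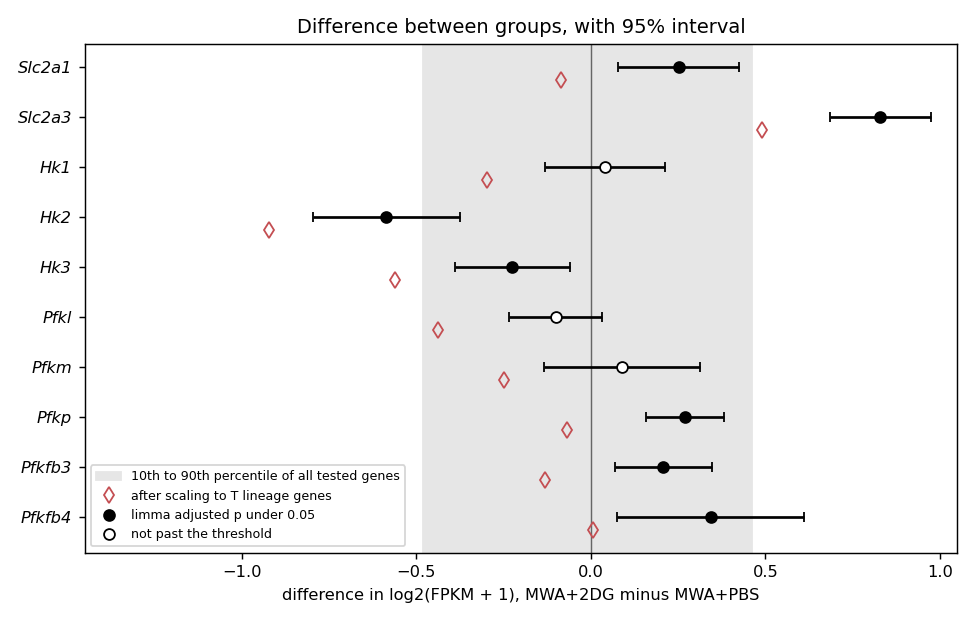
Difference in log2(FPKM + 1) of each gene, MWA+2DG minus MWA+PBS (horizontal axis), as circles with the 95% interval, filled where the limma adjusted p was under 0.05. The grey band spans the 10th to 90th percentile of all tested genes (-0.48 to 0.46), and diamonds give the difference after scaling to the T lineage genes. Slc2a3 lies above the band and Hk2 below it, and on the T lineage scale the diamonds of Slc2a1, Hk1, Pfkm, Pfkp and Pfkfb3 lie on the other side of 0 from their circles.

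The upstream sequences of 3 of the genes are shown because they are an inducible transporter, an inducible hexokinase and an inducible PFKFB enzyme, 2 of which rose and 1 of which fell. Each is the 250 bases before the RefSeq transcription start on GRCm38.p6, 5′ to 3′ on the strand of the gene. Capitals mark ACGTG or its reverse complement CACGT, the core letters to which the hypoxia-inducible factors bind. Slc2a1 lies on the plus strand at chr4:119108495-119108744, Hk2 on the minus strand at chr6:82774455-82774704, and Pfkfb3, the first of 2 windows, on the minus strand at chr2:11553930-11554179.
Slc2a1: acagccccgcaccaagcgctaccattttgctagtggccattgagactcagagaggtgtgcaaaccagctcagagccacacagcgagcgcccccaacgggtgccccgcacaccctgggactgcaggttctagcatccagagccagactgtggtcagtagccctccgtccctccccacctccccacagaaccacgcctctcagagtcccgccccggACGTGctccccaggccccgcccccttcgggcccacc
Hk2: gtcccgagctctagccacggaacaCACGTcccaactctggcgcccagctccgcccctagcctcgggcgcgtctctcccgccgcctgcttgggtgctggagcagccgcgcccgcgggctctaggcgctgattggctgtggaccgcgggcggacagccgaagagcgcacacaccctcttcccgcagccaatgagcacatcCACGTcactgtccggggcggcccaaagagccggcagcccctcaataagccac
Pfkfb3: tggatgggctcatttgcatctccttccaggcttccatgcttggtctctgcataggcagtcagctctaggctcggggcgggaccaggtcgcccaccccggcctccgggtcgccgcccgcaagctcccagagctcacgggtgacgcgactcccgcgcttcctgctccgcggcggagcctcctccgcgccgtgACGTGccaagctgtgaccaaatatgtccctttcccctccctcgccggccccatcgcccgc
The match of Slc2a1 ended 32 bases before the start, those of Hk2 222 and 48 bases before it, and that of Pfkfb3 56 bases before it. RefSeq gave 14 windows for 9 of the 10 genes. ACGTG on either strand was found in 7 windows of 5 genes (Slc2a1, Hk2, Hk3, Pfkm and Pfkfb3), and in 16.6% of the 32851 windows of all genes. The E-box CACGTG, which holds an ACGTG on both strands, was in 2 windows, of Pfkm and Pfkfb3, and in 6.02% of all windows. The 5 genes with a match thus comprised 2 that rose, 2 that fell and 1 that did not pass the test. These are matches of letters and not measured binding sites.

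Both glucose transporters rose in MWA+2DG, and Slc2a3 had the largest difference of the 10 genes. Slc2a3 (ENSMUSG00000003153) encodes GLUT3, a transporter with high affinity for glucose. It was 8.37, 7.57 and 7.45 FPKM in MWA+PBS against 14.78, 14.15 and 14.92 FPKM in MWA+2DG. Each MWA+2DG sample was well above every MWA+PBS sample. The means were 7.80 ± 0.50 and 14.6 ± 0.41 FPKM (SD, n = 3), a ratio of 1.88, and the difference on the log2(FPKM + 1) scale was 0.83 ± 0.06 (SE, 95% interval 0.68 to 0.97, limma adjusted p = 6.02e-05). A share of 97.8% of all tested genes had a lower difference. The call held in all 16 other settings tried, on the T lineage scale with a log2 difference of 0.49.

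Slc2a1 (ENSMUSG00000028645) encodes GLUT1, the transporter that T cells raise on activation. It was 9.28, 8.16 and 7.87 FPKM in MWA+PBS against 10.05, 9.82 and 10.78 FPKM in MWA+2DG. The groups did not overlap, but the gap between the highest MWA+PBS and the lowest MWA+2DG sample was smaller than the range within MWA+PBS. The means were 8.44 ± 0.74 and 10.2 ± 0.50 FPKM (SD, n = 3), a ratio of 1.21, with a log2 difference of 0.25 ± 0.07 (SE, 95% interval 0.08 to 0.42, limma adjusted p = 0.0314). Slc2a1 lost its call in 5 of the 6 fits that left out 1 sample, the fit without MWA+PBS replicate 1 being the exception. With all samples kept it lost the call with sample weights (limma adjusted p = 0.0565) and with no filter (limma adjusted p = 0.0648), and on the T lineage scale its difference was -0.09 (limma adjusted p = 0.289).

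Slc2a3 was a larger part of the summed transporter FPKM in every MWA+2DG sample. It made up 47.4%, 48.1% and 48.6% of Slc2a1 plus Slc2a3 in MWA+PBS against 59.5%, 59.0% and 58.1% in MWA+2DG. The share was 10.8 percentage points higher in MWA+2DG, with no overlap (exact two-sided permutation p = 0.1, the smallest that 3 against 3 samples allow). Such a share does not depend on the scaling between samples. The summed FPKM of both transporters was 16.2 ± 1.24 in MWA+PBS against 24.8 ± 0.87 in MWA+2DG (SD, n = 3). Neutrophils also express Slc2a3, and their markers moved in the same direction, with 12 of 15 higher and 2 lower. Their summed level was 339.2 to 367.5 FPKM in MWA+PBS against 1664 to 1847 FPKM in MWA+2DG. The 2 lower markers were Mpo and Elane, with means of 226.1 and 47.2 FPKM in MWA+PBS against 33.4 and 10.7 FPKM in MWA+2DG. The sum thus understates the rise of the 12 higher markers. B cell markers were higher too, 9 of 9 tested, with sums of 10.64 to 11.85 and 58.4 to 63.6 FPKM, as were 14 of the 17 T lineage genes. Macrophage, red cell and platelet markers moved the other way, with 14 of 14, 8 of 8 and 3 of 4 tested lower. The part of these cell types in the transporter values was not tested.

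Of the hexokinases, Hk2 and Hk3 fell and Hk1 did not pass the test. Hk2 (ENSMUSG00000000628), the inducible form that associates with mitochondria and follows T cell activation, was 3.26, 3.13 and 3.38 FPKM in MWA+PBS against 1.61, 2.11 and 1.81 FPKM in MWA+2DG. The 3 MWA+2DG samples were all lower than the 3 MWA+PBS samples. The means were 3.26 ± 0.13 and 1.84 ± 0.25 FPKM (SD, n = 3), so that MWA+PBS was 1.77 times MWA+2DG, and the log2 difference was -0.59 ± 0.09 (SE, 95% interval -0.79 to -0.38, limma adjusted p = 0.00189). Only 8.09% of all tested genes had a lower difference. At these low levels the added 1 FPKM shrinks the log2 difference, which was -0.80 with a pseudocount of 0.1 and -0.92 on the T lineage scale. Hk2 stayed called in the 15 other settings in which it was tested.

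Hk3 (ENSMUSG00000025877), a form known mainly from myeloid cells, was 6.60, 5.85 and 6.33 FPKM in MWA+PBS against 5.38, 4.86 and 5.40 FPKM in MWA+2DG. The groups did not overlap. The means were 6.26 ± 0.38 and 5.21 ± 0.31 FPKM (SD, n = 3), with a log2 difference of -0.22 ± 0.07 (SE, 95% interval -0.39 to -0.06, limma adjusted p = 0.0395). The call held without MWA+PBS replicate 2 and was lost without any other single sample. With no filter the call was lost as well (limma adjusted p = 0.066). The difference was -0.56 on the T lineage scale and was called.

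Hk1 (ENSMUSG00000037012), the constitutive hexokinase of most tissues, had the highest level of the 10 genes in both groups, with 19.6 to 23.1 FPKM in MWA+PBS against 21.2 to 23.1 FPKM in MWA+2DG. The ranges overlapped, and the log2 difference was 0.04 ± 0.07 (SE, 95% interval -0.13 to 0.21, limma adjusted p = 0.694). Hk1 was called lower on the T lineage scale, at -0.30 (limma adjusted p = 0.0176).

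Within the hexokinase family the Hk1 share was higher in every MWA+2DG sample. It was 69.5%, 68.6% and 70.4% of the summed hexokinase FPKM in MWA+PBS against 75.2%, 76.8% and 75.9% in MWA+2DG, a difference of 6.47 percentage points. The Hk2 share went from 10.4% ± 0.45 to 6.26% ± 0.68, and the Hk3 share from 20.1% ± 0.65 to 17.8% ± 1.49 (SD, n = 3). None of these 3 shares overlapped between the groups, and each had the smallest exact two-sided permutation p that the design allows, 0.1. The Hk3 difference of -2.29 points was -1.48 points without MWA+2DG replicate 5, and when Hk3 was set against the sum of Hk1 and Hk2 on the log2(FPKM + 1) scale its exact two-sided permutation p was 0.2. The summed hexokinase FPKM was 31.2 ± 2.31 in MWA+PBS against 29.4 ± 1.04 in MWA+2DG (SD, n = 3). Macrophage markers moved in the direction of Hk2 and Hk3: 14 of 14 were lower in MWA+2DG, with sums of 745.9 to 806.8 FPKM in MWA+PBS against 114.4 to 121.0 FPKM in MWA+2DG. Neutrophil markers moved against Hk2 and Hk3, with 12 of 15 higher and 2 lower, and so did B cell markers, with 9 of 9 tested higher. The summed monocyte markers overlapped between the groups, at 314.3 to 344.9 and 326.2 to 367.6 FPKM. Red cell markers were lower for 8 of 8, with sums of 292.4 to 348.0 and 67.0 to 84.7 FPKM. Of the monocyte markers 4 of 7 were lower and 2 higher, of the plasma cell markers 2 of 3 were lower (78.06 to 86.25 and 38.65 to 41.14 FPKM in sum), of the dendritic cell markers 2 of 2 were lower (9.03 to 10.95 and 4 to 5.02 FPKM), and of the NK cell markers 1 of 2 was lower and 1 higher (35.5 to 42.0 and 47.8 to 48.3 FPKM). Their part in the hexokinase values was not tested.

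Among the phosphofructokinase-1 subunits only Pfkp passed the test. Pfkp (ENSMUSG00000021196), the platelet-type subunit and the most abundant of the 3 here, was 17.21, 16.54 and 16.75 FPKM in MWA+PBS against 20.74, 20.44 and 20.30 FPKM in MWA+2DG. The samples of each group lay close together and the groups were far apart. The means were 16.8 ± 0.34 and 20.5 ± 0.22 FPKM (SD, n = 3), a ratio of 1.22, with a log2 difference of 0.27 ± 0.05 (SE, 95% interval 0.16 to 0.38, limma adjusted p = 0.00394). The call held in all settings except the T lineage scale, where the difference was -0.07 (limma adjusted p = 0.294). Platelet markers moved against it, with 3 of 4 lower and sums of 14.2 to 18.3 FPKM in MWA+PBS against 5.47 to 8.84 FPKM in MWA+2DG. The neutrophil and B cell markers given above moved in the direction of Pfkp, as they did in that of Pfkfb3 and Pfkfb4, and their part in these values was not tested.

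Pfkl (ENSMUSG00000020277), the liver-type subunit, was 7.38, 7.40 and 7.72 FPKM in MWA+PBS against 7.07, 6.70 and 7.01 FPKM in MWA+2DG. All 3 MWA+2DG samples were lower, but the log2 difference of -0.10 ± 0.06 did not pass (SE, 95% interval -0.23 to 0.03, limma adjusted p = 0.198). It was called lower on the T lineage scale, at -0.44. Pfkm (ENSMUSG00000033065), the muscle-type subunit, was lowest of the 3, at 3.07 to 4.02 FPKM in MWA+PBS against 3.63 to 4.15 FPKM in MWA+2DG. Its ranges overlapped, and the log2 difference was 0.09 ± 0.10 (SE, 95% interval -0.13 to 0.31, limma adjusted p = 0.489).

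Within the family the Pfkp share was higher and the Pfkl share lower in every MWA+2DG sample. The Pfkp share of the summed FPKM was 61.0%, 61.2% and 58.8% in MWA+PBS against 66.0%, 66.1% and 64.5% in MWA+2DG, 5.19 percentage points higher, and the Pfkl share was 26.2%, 27.4% and 27.1% and then 22.5%, 21.7% and 22.3%, a difference of -4.74 points. Neither overlapped between the groups (exact two-sided permutation p = 0.1 for each, the smallest possible). The Pfkm share was 12.8% ± 1.37 and 12.3% ± 0.83 (SD, n = 3) and overlapped (exact two-sided permutation p = 0.7). The summed FPKM of the 3 subunits was 27.9 ± 0.78 in MWA+PBS against 31.3 ± 0.32 in MWA+2DG (SD, n = 3).

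**Figure D3:**
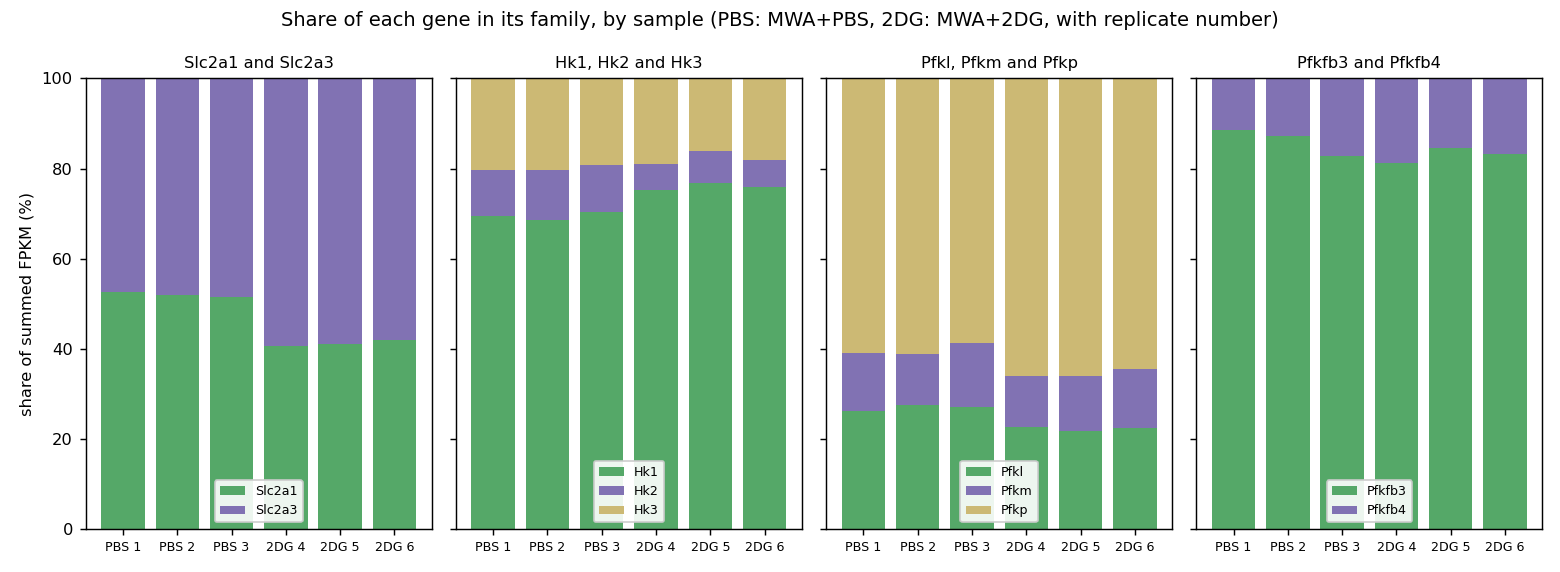
Share of each gene in the summed FPKM of its family, in percent (vertical axis, 0 to 100), for each of the 6 samples, named by group and replicate. Within each bar the colors are the genes of the family. The Slc2a3 share is 47.4% to 48.6% in MWA+PBS against 58.1% to 59.5% in MWA+2DG, the Hk2 share 10.1% to 11.0% and 5.71% to 7.02%, and the Pfkfb4 shares of the groups overlap.

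Both PFKFB enzymes rose, close to the limit of the test. Pfkfb3 (ENSMUSG00000026773), the inducible form with high kinase activity, was 7.16, 6.87 and 6.61 FPKM in MWA+PBS against 8.07, 8.37 and 7.84 FPKM in MWA+2DG. The groups did not overlap. The means were 6.88 ± 0.28 and 8.09 ± 0.27 FPKM (SD, n = 3), a ratio of 1.18, with a log2 difference of 0.21 ± 0.06 (SE, 95% interval 0.07 to 0.35, limma adjusted p = 0.0282). The call held without MWA+PBS replicate 2 and was lost without any other single sample. Quantile normalization also took the call away (limma adjusted p = 0.0524). Its difference on the T lineage scale was -0.13 (limma adjusted p = 0.107).

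Pfkfb4 (ENSMUSG00000025648) was the lowest of the 10 genes in both groups. It was 0.92, 1.01 and 1.38 FPKM in MWA+PBS against 1.86, 1.54 and 1.58 FPKM in MWA+2DG, with no overlap. The means were 1.10 ± 0.24 and 1.66 ± 0.17 FPKM (SD, n = 3), and the log2 difference was 0.34 ± 0.12 (SE, 95% interval 0.07 to 0.61, limma adjusted p = 0.0485). This call held without MWA+PBS replicate 3 and was lost without any other single sample, and on the T lineage scale the log2 difference was 0.0051 (limma adjusted p = 0.975). In all, Pfkfb4 lost its call in 11 of the 15 other settings that tested it, among them no filter (limma adjusted p = 0.11), median ratio scaling (0.0628) and scaling to the total left after ribosomal protein, globin, antibody and mitochondrial genes were taken out (0.0528). With a pseudocount of 0.1 the log2 difference was 0.56 (limma adjusted p = 0.0538), and without MWA+PBS replicates 1 and 2 it was 0.16 (limma adjusted p = 0.432). The Pfkfb4 share of both PFKFB genes was 13.8% ± 3.07 in MWA+PBS against 17.0% ± 1.61 in MWA+2DG (SD, n = 3) and overlapped (exact two-sided permutation p = 0.3). The difference of 3.19 points was 1.97 points without MWA+PBS replicate 1 and 4.91 points without MWA+PBS replicate 3. In all, 8 family shares were tested, of which 6 did not overlap. With Benjamini-Hochberg adjustment over the 8 permutation tests these 6 had an adjusted p of 0.133, Pfkfb4 of 0.343 and Pfkm of 0.7.

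**Figure D4:**
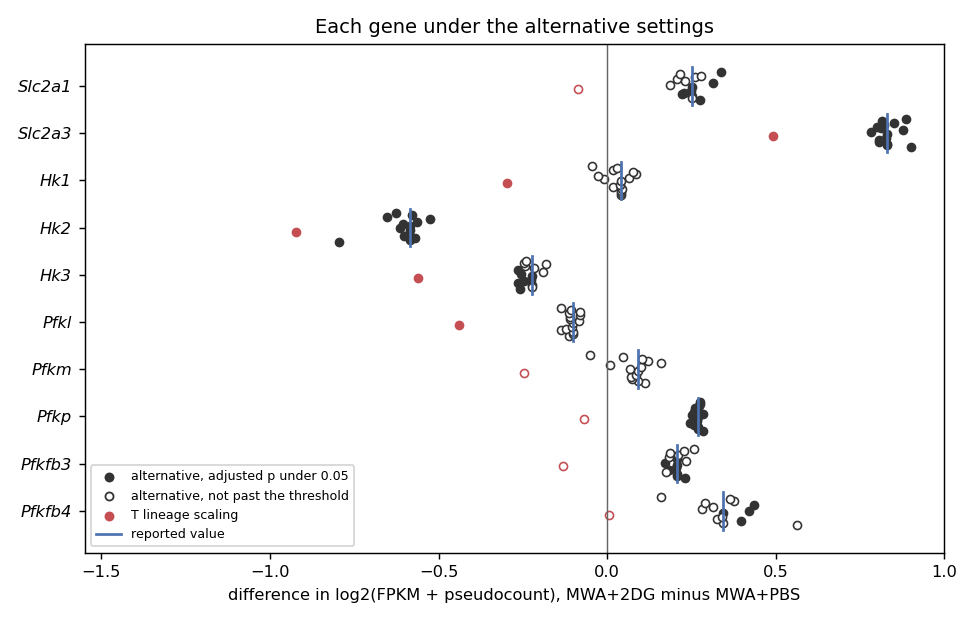
Difference in log2(FPKM + pseudocount), MWA+2DG minus MWA+PBS (horizontal axis), of each gene under each alternative setting. Each circle is a setting, spread vertically for legibility and filled where the limma adjusted p was under 0.05, red circles are the T lineage scale and the blue line is the reported value. Slc2a3 circles are filled throughout, Hk2 circles in all settings that tested it and Pfkp circles in all but the T lineage scale, while Slc2a1, Hk3, Pfkfb3 and Pfkfb4 hold open circles and Slc2a1, Hk1, Pfkm, Pfkp and Pfkfb3 cross 0 on the T lineage scale.

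The order of the 10 levels changed in the middle. In MWA+PBS it ran Hk1, Pfkp, Slc2a1, Slc2a3, Pfkl, Pfkfb3, Hk3, Pfkm, Hk2 and Pfkfb4, and the ranges of Slc2a1 and Slc2a3, of Slc2a3 and Pfkl and of Pfkm and Hk2 overlapped. In MWA+2DG it ran Hk1, Pfkp, Slc2a3, Slc2a1, Pfkfb3, Pfkl, Hk3, Pfkm, Hk2 and Pfkfb4, and only the ranges of Hk2 and Pfkfb4 overlapped. Slc2a1 was above Slc2a3 in each of the 3 MWA+PBS samples, and Slc2a3 was above Slc2a1 in each of the 3 MWA+2DG samples. The 10 genes together summed to 83.4 ± 3.69 FPKM in MWA+PBS against 95.2 ± 1.10 FPKM in MWA+2DG (SD, n = 3).

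Each of the other lists of the upper pathway held at most 1 called gene on the deposited scale, on which 39.4% of all genes were called. Of 11 other hexose transporters 2 were expressed enough to be tested, with a median log2 difference of 0.21, and Slc2a9, a urate and hexose transporter, rose from 4.29 ± 0.45 to 5.85 ± 0.28 FPKM (SD, n = 3, log2 difference 0.38 ± 0.08 SE, limma adjusted p = 0.0091). Of 7 other genes that phosphorylate glucose or reverse that step, 3 were tested and 1 was called, with a median of -0.0054. This was Adpgk, a glucokinase that uses ADP in place of ATP and is known in T cells, at 7.28, 7.08 and 6.61 FPKM in MWA+PBS against 14.28, 13.29 and 13.87 FPKM in MWA+2DG. Its log2 difference of 0.89 ± 0.06 (SE, limma adjusted p = 3.67e-05) was near that of Slc2a3. Neither of the 2 tested genes of other fructose phosphate control was called (median 0.07). Among the isomerase and aldolase genes, with a median of -0.12, 1 of 3 was lower, the triose isomerase Tpi1, from 25.5 ± 1.95 to 16.5 ± 1.09 FPKM (SD, n = 3, log2 difference -0.60 ± 0.08 SE, limma adjusted p = 0.000733). Gpi1 and the more abundant of 2 identifiers named Aldoa did not pass, at -0.09 and -0.12. In the branches that leave the hexose phosphates 1 of 12 was called (median 0.05), Pmm2, which makes mannose phosphates for glycosylation, from 10.7 ± 0.93 to 14.4 ± 1.10 FPKM (SD, n = 3, log2 difference 0.40 ± 0.08 SE, limma adjusted p = 0.00673). All differences of these lists were 0.34 lower on the T lineage scale.

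Lower glycolysis had 1 gene higher and 4 lower of 9 tested, where 22.3% of all tested genes were called higher and 17.1% lower. Its median log2 difference was -0.14, against 0.15 for the 10 upper genes. Ldhb, a lactate dehydrogenase subunit, fell from 5.50 ± 1.19 to 2.75 ± 0.52 FPKM (SD, n = 3, log2 difference -0.79 ± 0.16 SE, limma adjusted p = 0.00691). Pgam1, a mutase, was 65.0 ± 3.53 and 51.6 ± 3.98 FPKM (SD, n = 3, log2 difference -0.33 ± 0.07 SE, limma adjusted p = 0.00935). Gapdh was called lower too at -0.36, but its level of 5.50 and 4.06 FPKM may be split with near-identical copies and is uncertain. The enolase Eno3 was called higher, at 0.29. On the T lineage scale the differences of this list were 0.34 lower, so that Eno3 was then below 0. The difference between the upper and lower steps was not tested.

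**Figure D5:**
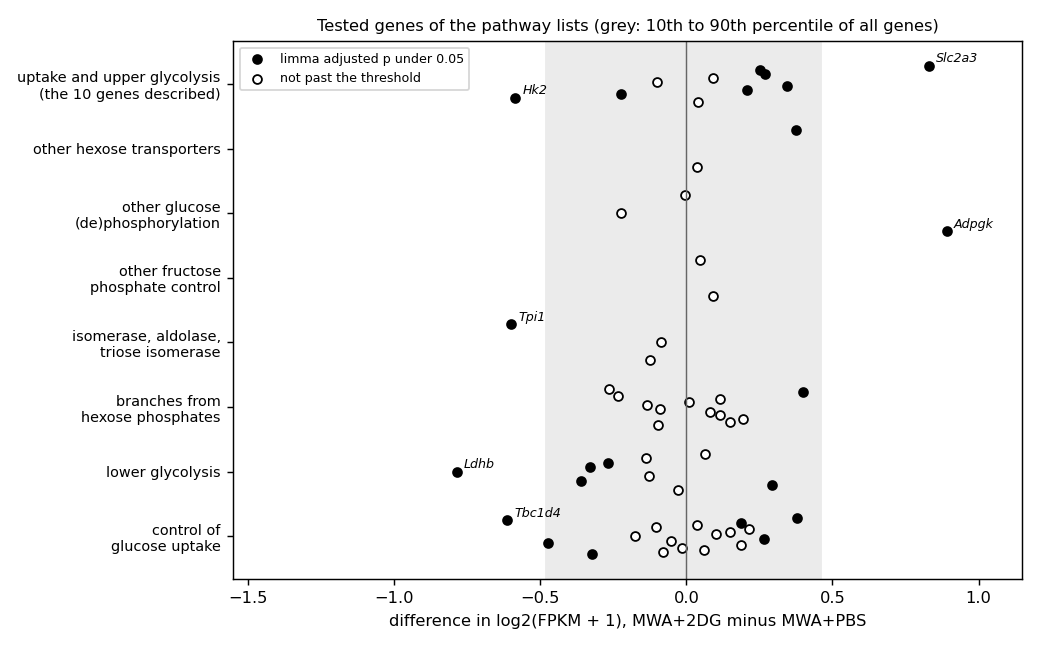
Difference in log2(FPKM + 1), MWA+2DG minus MWA+PBS (horizontal axis), of the tested genes of each pathway list, a point per gene, filled where the limma adjusted p was under 0.05. The 10 genes of uptake and upper glycolysis had 5 higher and 2 lower, and lower glycolysis 1 higher and 4 lower of 9. Of all tested genes 22.3% were called higher and 17.1% lower. On the T lineage scale every point would lie 0.34 further to the left.

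Of 17 genes that control glucose uptake, 3 were higher, 3 lower and 11 did not pass, with a median log2 difference of 0.04. Over all tested genes 39.4% were called, 22.3% higher and 17.1% lower. Tbc1d4, a Rab GTPase-activating protein that is phosphorylated by AKT, fell from 3.54 ± 0.15 to 1.97 ± 0.20 FPKM (SD, n = 3, log2 difference -0.61 ± 0.08 SE, limma adjusted p = 0.00104). Mlxip, the glucose-sensing factor MondoA, fell from 35.7 ± 2.38 to 25.4 ± 1.23 FPKM (SD, n = 3, log2 difference -0.47 ± 0.07 SE, limma adjusted p = 0.00123). Txnip, a target of MondoA that drives GLUT1 from the cell surface, rose from 204.2 ± 7.54 to 266.2 ± 15.5 FPKM (SD, n = 3, log2 difference 0.38 ± 0.06 SE, limma adjusted p = 0.00274). Akt1 was called lower at -0.32, and Myc and Tbc1d1 were called higher at 0.27 and 0.19. Hif1a, the oxygen-regulated factor known to drive several of the 10 genes, was at -0.01 and did not pass. The level of its RNA does not show the activity of the factor. On the T lineage scale the differences of all these genes were 0.34 lower.

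For each of the 7 called genes the 3 nearest profiles over the 6 samples were sought among all tested genes, by the root mean square difference of centred log2(FPKM + 1). Slc2a3 lay nearest to Rfx5, at 0.0171, followed by Adpgk and Pglyrp2. Hk2 lay nearest to Arhgef39, at 0.027, then to Slc29a3 and to Tbc1d4, at 0.0337. Slc2a1 lay nearest to Gpam, Fkbp8 and Lypla2, Pfkp to Ap1g2, Mef2a and Acox3, Hk3 to Nab2, Pnpla2 and Ulk1, Pfkfb3 to Timm17b, Alg11 and F2rl2, and Pfkfb4 to Ccdc58, Zfp94 and Rpl18-ps1. The likeness was measured over 6 samples in 2 groups only, so for called genes it largely restates a like difference between the groups. A link between the genes was not tested.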

How the data were processed

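CD8+ T cells of mouse spleen were profiled by strand-marked poly(A) RNA-seq with molecular identifiers. The deposited values are FPKM per gene and sample, to 2 decimals, made by the authors with HISAT2 and StringTie. The submitters' processing notes name cutadapt 1.9, HISAT2 2.0.4, UMI-tools, StringTie 1.3.4d and mm9, and the methods name fastp for quality control. FPKM cannot be turned back into counts, so no count model was used and the depth behind each value was unknown. Values were tested as log2(FPKM + 1) with limma 3.58.1 (lmFit, eBayes with trend) in R 4.3.3 over 12444 genes with a mean of at least 1 FPKM, with Benjamini-Hochberg adjustment and a threshold of 0.05. Family shares were compared with exact two-sided permutation tests (scipy 1.17.1). Fold changes on this scale understate changes of low genes. The 10 genes, the pathway lists and the marker lists were chosen with earlier results of these data known. All 10 genes were named, up to 4 called genes of each pathway list, those with the largest changes first, and the 3 nearest profiles of each called gene. Gpi1, Aldoa, Hif1a, Fbp1, Myc, Tbc1d1, Mpo and Elane were named after their values were seen. Alternatives were another pseudocount, other filters, other scalings, another variance prior, sample weights, the call rule of the study and the removal of each sample. Leaving out both MWA+PBS samples with Fbp1 was added after seeing the data. Promoter windows came from a RefSeq table on GRCm38.p6 and were not tied to the mm9 alignments. The FPKM files hold no coordinates. From the isomerase and aldolase list 1 gene is not reported here.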

Additional observations from a re-analysis of the deposited data

How the results depend on the processing

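No paired analysis was possible because the groups share no replicate numbers. Slc2a3 was called in all 16 alternative settings and Hk2 in the 15 that tested it. At a mean of at least 5 FPKM, Hk2, Pfkm and Pfkfb4 were not tested. The number of all genes called was 2951 at that filter, where fewer genes were tested, 7802 on the T lineage scale, and 3706 to 5195 with 1 sample left out. The number of the 10 genes called was 4 with no filter, where 5178 of 28773 genes (18%) were called, 4 without MWA+PBS replicates 1 and 2, where 3508 of 12444 (28.2%) were called, and 3 to 5 with 1 sample left out, where 29.8% to 41.7% of all genes were called. On the T lineage scale, which lowers every difference by the same amount, Slc2a1 was at -0.087, Hk1 at -0.297, Pfkm at -0.248, Pfkp at -0.068 and Pfkfb3 at -0.131 on the log2 scale. Hk1 was at -0.0087 with sample weights and between -0.0285 and 0.0838 with 1 sample left out. Without MWA+PBS replicates 1 and 2, Hk1 was at -0.046 and Pfkm at -0.052. The Pfkm share differed by -1.15 to 0.218 percentage points with 1 sample left out. For these the cause was not tested. Of 157 values of the 10 genes under these settings, 115 kept their direction and their side of the threshold, 35 lost the call, 3 of them with a turned direction, 2 gained a call, 1 of them with a turned direction, and 5 turned without a call in either fit. Without counts, the counting error of the low genes Hk2 and Pfkfb4 was unknown.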
